A study of Mus musculus with 4 samples.

Results

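The 9 transcription factors described here pattern the gut tube along its length: Cdx1, Cdx2, Gata4, Gata6, Pdx1, Sox2, Onecut2, Hnf4a and Hnf4g. They were taken by symbol, as 9 of the 31054 features in the count matrices, in 15800 of 22731 cell barcodes that showed 500 genes or more and drew no more than 20% of their unique molecular identifiers (UMIs, each standing for 1 captured RNA molecule) from mitochondrial genes. All cells came from mice of 1 genotype, Bmi1-GFP, a reporter allele in which green fluorescent protein is made where the Bmi1 locus is active. Cells labelled intestinal epithelial were sorted and made into 4 droplet libraries, 1 per group: fetal intestine at 12.5 days of gestation (E12.5), fetal intestine at 17.5 days (E17.5), adult, and adult after irradiation. Per the labels' protocols, intestines were dissected at E12.5 and small intestine at the later embryonic stage. The number, sex and adult age of the animals, the sorting gates, and the dose and time of irradiation are not given in the sources used here. A single library stands for each group, so no spread between animals is known, no difference between groups was tested, and every interval below covers counting error only.

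Regional identity in the gut is set by transcription factors whose domains meet at organ borders. CDX factors specify intestine over stomach, SOX2 marks the foregut and stomach side, PDX1 spans the pancreas, distal stomach and proximal duodenum, and GATA4 marks duodenum and jejunum against ileum while GATA6 spans the length of the gut. ONECUT2 is a proximal factor of the duodenum, biliary tree and pancreas, and the paralogous nuclear receptors HNF4A and HNF4G drive the enterocyte programme.

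The kept cells numbered 4226, 4602, 3788 and 3184 in the order E12.5, E17.5, adult, irradiated, with median depths of 18637.5, 11499, 3699.5 and 8786 UMIs. Between 6 and 12 barcodes were shared by any pair of libraries. The 8 general epithelial markers summed to between 3671 and 12253 CPM (a gene's UMIs per 1000000 UMIs), against 0.501 to 216 CPM for 7 mesenchymal markers, highest at E17.5. The label was not met by every cell: at E17.5, 551 cells lay in pancreatic acinar-like clusters, 145 in an islet-like cluster, and 248 in mesenchymal-like and smooth muscle-like clusters. Those 248 cells serve below as the level that free RNA can give in cells that should lack an epithelial gene. No such cluster was named in the other 3 libraries, so that level was measured at E17.5 only. At E12.5 a cluster of 43 cells led by Acta2 and Col3a1 stayed unnamed and was not used for it.

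Among the intestinal determinants, Cdx2, the master factor of intestinal fate, was highest at E12.5 and Cdx1, its paralogue, was close to absent there. Cdx2 stood at 304 CPM (95% Poisson interval 300.4 to 308) in the E12.5 library, then 174 (171 to 177) for E17.5, 101 (97.3 to 104) for adult cells and 87.5 (84.7 to 90.4) after irradiation. No interval overlapped another, and the order ran down from the early embryo. These are sums over libraries of unlike cell makeup, whose part in the order was not tested. Levels within classes of cells are given below. Cdx1 stood at 1.04 CPM (0.843 to 1.28, 93 UMIs) in the E12.5 library, 78.2 (76.2 to 80.2) for E17.5, 111 (107 to 114) for adult cells and 71.5 (68.9 to 74.1) after irradiation. Its E12.5 library was low against all others, by a log2 ratio of 6.23 (5.93 to 6.54) below E17.5 without a pseudocount.

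Of the nuclear receptors of the enterocyte programme, Hnf4a was lowest at E12.5, and Hnf4g was lowest after irradiation with E12.5 next. Hnf4a stood at 24.5 CPM (23.5 to 25.6) in the E12.5 library, 73.3 (71.4 to 75.2) for E17.5, 99.4 (96.0 to 103) for adult cells and 102 (99.0 to 105) after irradiation. The adult and irradiated levels did not differ beyond counting error. Hnf4g stood at 21.7 CPM (20.8 to 22.7) in the E12.5 library, 55.4 (53.7 to 57.1) for E17.5, 29.5 (27.7 to 31.5) for adult cells and 19.2 (17.9 to 20.6) after irradiation. It was the only member whose level peaked in the late embryo beyond counting error.

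The GATA factors were highest at E12.5. Gata4 stood at 41.5 CPM (40.1 to 42.8), 25.9 (24.8 to 27.1), 21.0 (19.5 to 22.7) and 20.2 (18.9 to 21.6) in that order. Gata6 stood at 127 (125 to 129.7), 96.3 (94.2 to 98.6), 71.0 (68.2 to 74.0) and 67.4 (64.9 to 69.9) CPM in the same order. For both, the intervals of adult and irradiated adult overlapped and the others did not.

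Of the proximal factors, Onecut2 stood at 204 CPM (201.4 to 207), 119.5 (117 to 122), 244 (239 to 249.4) and 208 (204 to 213) in that order, with the E12.5 and irradiated levels indistinguishable and E17.5 lowest. Pdx1 stood at 12.1 CPM (11.4 to 12.8), 24.7 (23.6 to 25.8), 22.3 (20.7 to 24.0) and 20.3 (18.9 to 21.7), with E12.5 lowest and overlaps between E17.5 and adult and between adult and irradiated adult. Sox2, the stomach and oesophagus factor, gave 47 UMIs at E12.5 (0.528 CPM, 0.388 to 0.702) and 7 at E17.5 (0.0910 CPM). It gave 0 UMIs in both adult libraries, where a floor of 3 counts allows up to 0.0940 and 0.0725 CPM.

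**Figure D1:**
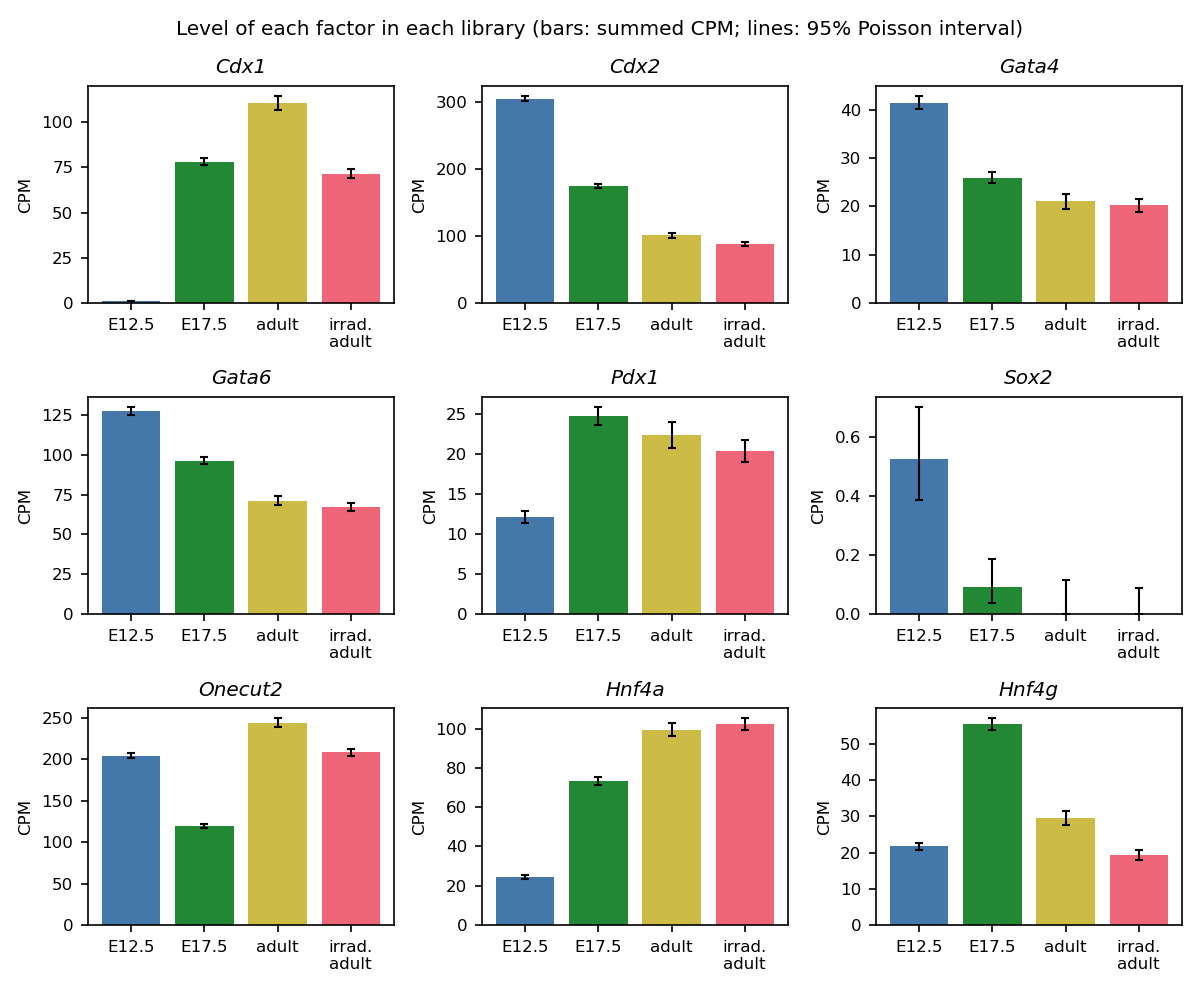
Level of each factor, in CPM on an axis from 0, in the E12.5, E17.5, adult and irradiated adult libraries (1 library each); bars are UMIs summed over kept cells and lines the 95% Poisson intervals, which cover counting error only. Cdx2 steps down from 304 to 87.5 CPM, Cdx1 is near 0 only at E12.5, and Hnf4g peaks at E17.5.

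The libraries differ in depth, so shares of cells with a UMI were compared after thinning each cell to 2000 UMIs, which left out 571, 190, 686 and 505 cells in library order. Cdx2 was then detected in 43.5%, 22.4%, 14.4% and 17.7% of cells; the shares before thinning were 82.5%, 58.7%, 33.4% and 52.4%. The last step goes against the CPM, so no order is read from it. Cdx1 was detected in 0.219%, 9.995%, 20.99% and 14.8% of thinned cells, against 2.06%, 41.8%, 39.99% and 46.8% before thinning. At E17.5, Cdx2 was found in 2.07% of thinned mesenchymal-like and smooth muscle-like cells (9.34 CPM, median depth 6446 UMIs) and in 31.1% of enterocyte-like, stem-like, goblet-like and enteroendocrine-like cells (211 CPM, median depth 18538). Gata6, which mesodermal cells also express, was at 39.6 CPM in the former cells, Pdx1 at 9.89, Onecut2 at 11.5, and the other 4 detected members were at or below 3.85.

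To set members against the genome, the 14607 genes that reached 50 UMIs in one library or the other were compared between E17.5 and E12.5 as log2 of (CPM + 1) ratios and called at 2-fold, a rule of size in place of a test. Of the 9 members, 8 entered (Sox2 had too few UMIs), and 3 were called higher at E17.5, Cdx1, Hnf4a and Hnf4g, where 15.9% of all genes tested were higher. None was called lower, where 16.2% of all genes were. The log2 ratios were 5.28 for Cdx1, 1.54 for Hnf4a and 1.31 for Hnf4g, each understated by the pseudocount. Pdx1 fell just short at 0.97, and passed at 1.09 under both edgeR's TMM and DESeq2's size factors. Cdx2 was at -0.80, Onecut2 at -0.77, Gata4 at -0.66 and Gata6 at -0.40. The members' median was 0.29 and that of all genes tested -0.19. Hnf4g was no longer past 2-fold, at 0.28, when each cell's CPM was averaged with equal weight, and Cdx2 was past it downward, at -1.04.

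Lists of the members' known territory showed the following at E17.5 against E12.5, beside those same shares. Of 17 enterocyte genes with known HNF4 and CDX sites, 16 were tested and 15 were higher, with a median log2 ratio of 4.18; Fabp2, a fatty acid carrier, was at 53.6 and 2129 CPM and Apoa4, a lipoprotein of absorbing enterocytes, at 1.45 and 469 CPM. Of 10 proximal small intestine genes, 8 were higher, and all 7 distal ones were, among them Nr1h4, the bile acid receptor, at 3.91 and 46.4 CPM. Some genes stand on 2 of these lists (Apoa4, Fabp1 and Lct). Of 9 posterior gut genes 6 were tested and 5 were lower, among them Osr2 at 116 and 15.3 CPM and Hoxb13, a hindgut gene, at 6.98 CPM against 0 UMIs. Of the 622 Hoxb13 UMIs at E12.5, 526 came from a cluster of 99 cells. That cluster held only 39 of the 10310 Osr2 UMIs at E12.5. Intestines were dissected at E12.5 and small intestine at E17.5, so for these genes stage and tissue taken cannot be told apart. Of 7 pancreatic progenitor genes, 6 were higher at E17.5, among them the digestive enzyme gene Cpa1 at 21.9 and 1201 CPM. The E17.5 library held 551 pancreatic acinar-like and 145 islet-like cells, and their part in these levels was not tested.

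Between E17.5 and adult, 8 members entered of 14099 genes tested, and 1, Onecut2, was called higher, with a log2 ratio of 1.02, where 14.1% of all genes were higher. None was lower, where 15.2% of genes were. Hnf4g was at -0.88, Cdx2 at -0.78, Gata6 at -0.43, Gata4 at -0.29 and Pdx1 at -0.14, while Cdx1 was at 0.50 and Hnf4a at 0.44. The members' median was -0.22 and that of all genes -0.09. The Onecut2 call sits at the threshold: it was 0.98 with a stricter cell filter and 0.82 with epithelial and unnamed clusters only, and with both of these Hnf4g was past 2-fold downward, at -1.26 and -1.10.

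Between irradiated adult and adult, no member was past 2-fold either way among 8 that entered, where 3.07% of the 12913 genes tested were higher and 5.33% lower. The lowest log2 ratios were those of Cdx1 at -0.62 and Hnf4g at -0.59. Hnf4a was at 0.04 and Gata4 at -0.05. The members' median was -0.16 and that of all genes -0.04. Both comparisons with the adult share its library, as those with E17.5 share that one.

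At E12.5 the cells fell into 12 clusters, made without the 9 factors, and none took the name of a differentiated intestinal lineage. For description they were grouped, after their leading genes were seen, into 882 cells led by Sfrp5, 2061 led by Osr2, 352 led by Postn and Hoxb9, 99 led by Hoxb13 and Krt15, and 159 led by Cpa1, Spp1 and Clps. Sfrp5 encodes a secreted Wnt inhibitor, Osr2 is a transcription factor of the posterior gut list, Hoxb9 is a posterior homeobox gene, and Cpa1 and Clps encode pancreatic enzymes and cofactors. Osr2 itself was at 168 CPM in the Osr2 group, 111 in the Postn cluster, 46.6 in the Sfrp5 group and 19.8 in the Hoxb13 cluster. The Cpa1 cluster was scored for another class but held more acinar markers among its leading genes, and was left unnamed. A further 492 cells of shallow depth (median 1146.5 UMIs), 138 led by Ttr and 43 led by Acta2 and Col3a1 were kept out of the groups.

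Gata4 and Onecut2 stepped down from the Sfrp5 group through the Osr2 group to the Postn cluster. Of these 3 populations, Pdx1 was highest in the Sfrp5 group. Gata4 was at 70.7 CPM (67.4 to 74.0) in the Sfrp5 group, 33.7 (32.0 to 35.4) in the Osr2 group and 10.2 (8.11 to 12.6) in the Postn cluster. Onecut2 was at 484 (475 to 492), 74.2 (71.7 to 76.7) and 43.7 (39.3 to 48.5) CPM in the same order, a ratio of 11.1 between the first and the last. Pdx1 was at 16.9 CPM (15.3 to 18.6) in the Sfrp5 group, 0.474 (0.297 to 0.717, 22 UMIs) in the Osr2 group and 1.23 (0.588 to 2.26, 10 UMIs) in the Postn cluster. Of these 3 populations the Sfrp5 group was thus highest in each of the 3 factors. The Hoxb13 cluster did not continue the order. Onecut2 was at 96.8 CPM (83.6 to 112) there, above the Osr2 group, and Gata4 was at 15.7 CPM (10.7 to 22.3).

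Cdx2 and Gata6 ran the other way and by less. Cdx2 was at 262 CPM (255 to 268), 344 (339 to 349) and 379 (365 to 392) from the Sfrp5 group through the Osr2 group to the Postn cluster. Gata6 was at 101 (97.1 to 105), 139 (136 to 143) and 161 (153 to 170.1). Hnf4a differed little, at 25.8 (23.9 to 27.9), 25.02 (23.6 to 26.5) and 18.9 (16.0 to 22.1), and Hnf4g stood at 19.1, 25.2 and 16.7. Enterocyte genes did not share a direction over these groups. Fabp2 was highest in the Sfrp5 group (101 CPM, against 40.3 in the Osr2 group and 13.4 in the Postn cluster). Vil1 was lowest there, at 36.3, 55.2 and 42.9 CPM in the same order, as was Mep1a, at 0.278, 3.47 and 5.64 CPM.

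Among the small clusters, Cdx2 was low in 3. It was at 66.2 CPM (44.3 to 95.05, 29 UMIs) in the 43 cells led by Acta2 and Col3a1, which are smooth muscle and mesenchymal markers. That interval overlaps the one of Cdx2 in the Cpa1 cluster, and the part of free RNA or doublets in either level was not tested. The Cpa1 cluster held 573 of the 1077 Pdx1 UMIs at E12.5 (157 CPM, 145 to 171), with Cdx2 at 95.1 CPM (85.3 to 106), Onecut2 at 263 and Hnf4g at 7.15. In it Nkx6-1 was at 107 CPM and Ptf1a, the pancreatic lineage factor, at 49.7. Each was at or under 0.388 CPM in the Sfrp5, Osr2 and Postn groups. Nkx6-1 and Pdx1 were not confined to the Cpa1 cluster. In the Ttr cluster (138 cells, median 997 UMIs) they were at 66.8 (32 UMIs) and 52.2 CPM (25 UMIs), with 0 Ptf1a UMIs. The Hoxb13 cluster held 23 of the 47 Sox2 UMIs, in 8 cells (11.7 CPM, 7.39 to 17.5), with Cdx2 at 117 CPM (102 to 133). Krt5, a basal keratin, was at 68.4 CPM and Trp63, the squamous lineage factor, at 13.2 CPM there, against 0 to 0.245 CPM in the Sfrp5, Osr2 and Postn groups. Of the other Sox2 UMIs, 8 came from the Ttr cluster and 10 from the Acta2 cluster, each in 2 cells. Of the 12 genes of the foregut and stomach list, 4 (Gkn1, Muc5ac, Anxa10 and Nkx2-1) had 0 UMIs in the E12.5 library, and the others were at or under 3.12 CPM there. Of these, Gkn2 and Cldn18, both genes of stomach epithelium, were at 2.26 (1.71 to 2.93) and 2.74 CPM (2.13 to 3.47) in the Sfrp5 group, above the 0.495 and 1.29 CPM of the Osr2 group. Other genes of the list went elsewhere. Tff1 and Sox21 were at 8.11 (4.64 to 13.2) and 3.55 CPM (1.43 to 7.31, 7 UMIs) in the Hoxb13 cluster, against 3.49 and 0.873 CPM in the Sfrp5 group.

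**Figure D2:**
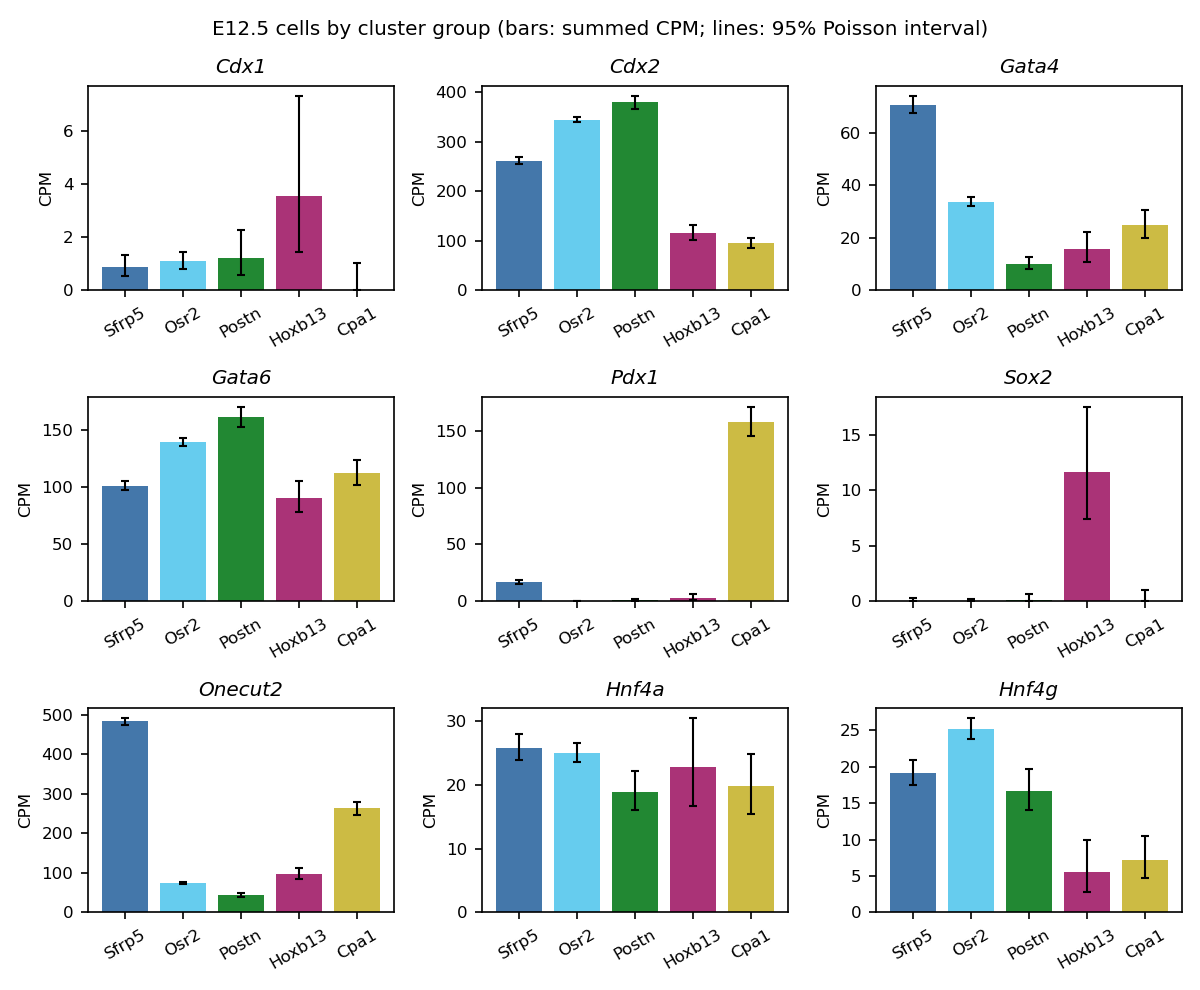
Level of each factor in 5 groups of E12.5 cells named by a leading gene, in CPM on an axis from 0; bars are UMIs summed over cells and lines the 95% Poisson intervals. Gata4 and Onecut2 step down from the Sfrp5 group to the Postn cluster while Cdx2 and Gata6 step up, Pdx1 is highest in the Cpa1 cluster (157 CPM) and Sox2 in the Hoxb13 cluster (11.7 CPM).

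Pdx1 and Cdx2 are neighbours in the genome. In the GRCm38 annotation Pdx1 spans chr5:147269959-147275848 on the plus strand and Cdx2 spans chr5:147300805-147307270 on the minus strand, 24956 bases away with the predicted gene Gm27033 between them. Hnf4a spans chr2:163506808-163572910 on the plus strand, with a start at each of a pair of promoters, and 3' reads do not assign a UMI to one. RefSeq (GRCm38.p6) promoter entries matched 4 of the 9 members, and the 250 bases before each start of Cdx2, Pdx1 and Hnf4a were searched on both strands for short motifs. For GATA factors the motif was AGATAA. For CDX factors it was TTTATG, with TTTATT as the other form. For ONECUT factors it was ATCAAT, with ATCGAT as the other form. For HNF4 factors it was CAAAGTCCA, with CAAAGGTCA as the other form. The sequences below are shown because these genes had opposed levels in E12.5 cells (Cdx2 and Pdx1) or held a match (Hnf4a); they run 5' to 3' on the gene's strand, end before the first annotated base or at the last match, and have matches in capitals.
Cdx2, chr5:147307271-147307499, minus strand: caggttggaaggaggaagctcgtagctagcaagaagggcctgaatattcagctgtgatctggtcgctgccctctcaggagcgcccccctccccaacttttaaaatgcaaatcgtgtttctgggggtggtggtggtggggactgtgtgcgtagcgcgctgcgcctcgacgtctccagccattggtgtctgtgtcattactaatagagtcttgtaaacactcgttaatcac
Pdx1, chr5:147269847-147269958, plus strand: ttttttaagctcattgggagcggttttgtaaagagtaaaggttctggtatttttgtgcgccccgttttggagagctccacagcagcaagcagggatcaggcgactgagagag
Hnf4a first start, chr2:163506607-163506810, plus strand: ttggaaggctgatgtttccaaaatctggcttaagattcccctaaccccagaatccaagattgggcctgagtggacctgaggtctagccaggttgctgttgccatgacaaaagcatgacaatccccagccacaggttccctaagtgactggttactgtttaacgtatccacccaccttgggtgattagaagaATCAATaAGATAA
In the Hnf4a sequence an ONECUT match lies at bases -59 to -54 and a GATA match at -52 to -47 from the RefSeq start, with no overlap. Of 32851 RefSeq promoter windows of this length, 7.40% held an ONECUT match and 9.99% a GATA match, beside 25.5% for CDX and 0.807% for HNF4. The searched windows of Cdx2, Pdx1 and the second Hnf4a start held none of these letters. A match is a run of letters and not a measured site.

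Co-detection was counted in 3426 E12.5 cells thinned to 8000 UMIs, with 800 shallower cells left out. A UMI was found for Cdx2 in 86.6% of cells, Gata6 in 60.5%, Onecut2 in 43.8%, Gata4 in 23.6%, Hnf4a in 16.5%, Hnf4g in 16.0%, Pdx1 in 5.69%, Cdx1 in 0.846% and Sox2 in 0.350%. Most cells held several members: 1235 cells (36.05%) had 2, 1042 (30.4%) had 3, 469 (13.7%) had 4, and 62 cells had none. Of the 36 pairs, 25 had at least 10 cells expected with both under independence. In 17 of those the observed count lay within 1.2-fold of that expected, in 4 it was above and in 4 below. Since Cdx2 was found in 86.6% of cells, no pair with it could lie above 1.2-fold.

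The pairs above, which could not include Cdx2, were all among the proximal factors and Hnf4a. Gata4 and Onecut2 shared 527 cells where 354 were expected, a ratio of 1.49; Onecut2 was found in 65.3% (61.9 to 68.6) of cells with Gata4 and in 37.2% (35.4 to 39.1) of the rest. Pdx1 and Onecut2 shared 136 cells where 85.5 were expected (1.59), and Gata4 and Pdx1 shared 73 where 45.9 were expected (1.59). Pdx1 and Hnf4a shared 44 where 32.2 were expected (1.37), a ratio that turned to 0.709 in cells thinned to 4000 UMIs. The first 3 pairs join the factors that were higher in the Sfrp5 group than in the Osr2 group and the Postn cluster; the part of cluster makeup in these ratios was not tested, beyond the values without 3 clusters given below.

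Among the 25 pairs, those of Cdx2 with Sox2 and with Pdx1 had the lowest ratios. Pdx1 and Cdx2 shared 101 cells where 169 were expected (0.598); Pdx1 was found in 3.40% (2.78 to 4.12) of cells with Cdx2 and in 20.5% (16.9 to 24.5) of cells without. Sox2 and Cdx2 shared 4 cells where 10.4 were expected (0.385), from 12 cells with Sox2. Of those 12, 6 lay in the Hoxb13 cluster, 2 in the Ttr cluster and 2 in the Acta2 cluster. Of the 195 cells with Pdx1, 84 lay in the Cpa1 cluster. Without the 3 unnamed clusters, led by Cpa1, Ttr and Acta2, the ratio for Pdx1 and Cdx2 was 0.870, while that of Gata4 and Pdx1 was 2.33 and that of Pdx1 and Onecut2 was 2.15. With no thinning it was 0.913 for Pdx1 and Cdx2. In the Cpa1 cluster Cdx2 was found in 26.9% (19.6 to 35.2) of cells, and in 85.6% to 94.6% of cells in the 7 clusters of the Sfrp5, Osr2 and Postn groups. Pdx1 and Hnf4g were at 0.739, a ratio of 1.14 without those 3 clusters. Cdx1 and Onecut2 were at 0.708, from 9 shared cells.

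For the HNF4 paralogues, 90 cells held both Hnf4a and Hnf4g where 90.4 were expected (0.996), a ratio that was 1.30 in cells thinned to 4000 UMIs and 1.34 with no thinning. Without thinning the cells differ in depth, and the 1.34 is not specific to this pair. Gata4 with Hnf4a then went from 1.10 to 1.40 and Gata4 with Gata6 from 0.934 to 1.17, while Pdx1 with Onecut2 stayed at 1.57. Gata4 and Gata6 shared 456 cells where 488 were expected (0.934). Cdx2 and Onecut2, both widely detected, shared 1291 where 1301 were expected (0.992), a ratio that the wide detection of Cdx2 leaves little room to rise.

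**Figure D3:**
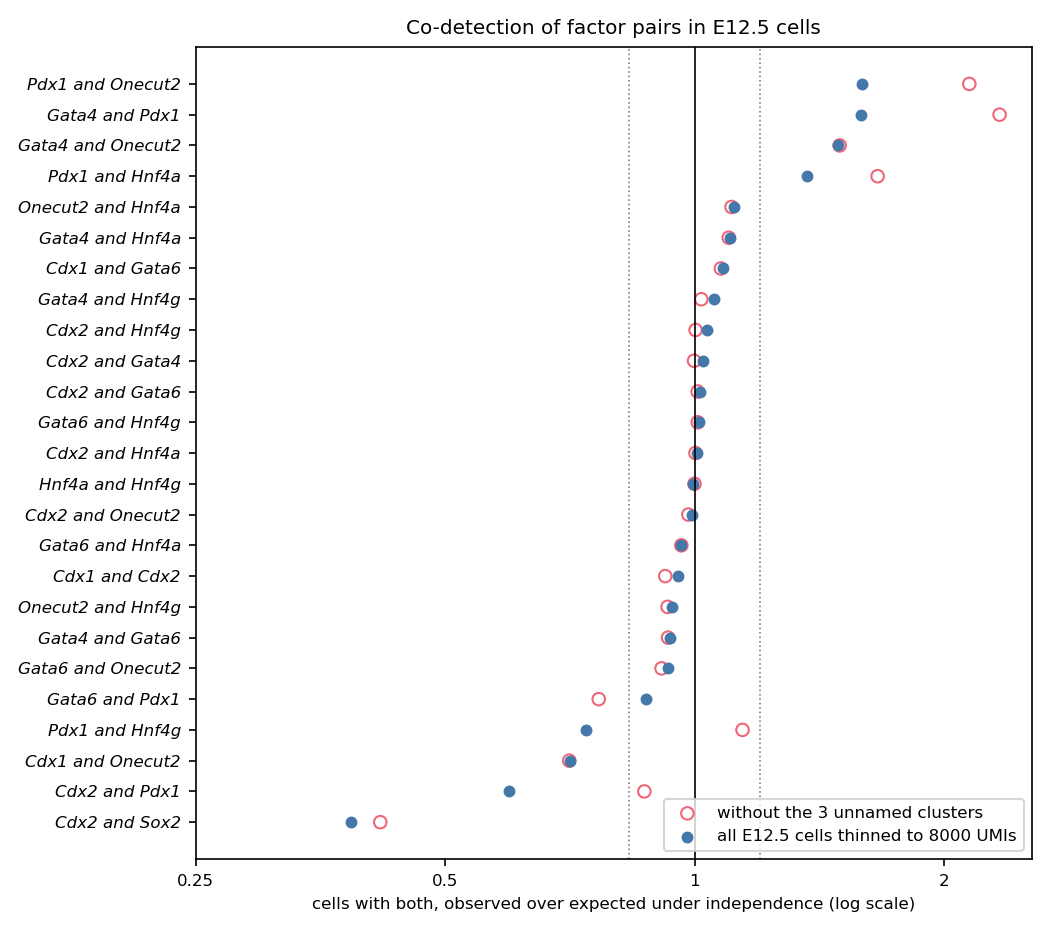
Observed over expected number of E12.5 cells with a UMI of both genes, on a log axis, for the 25 pairs with at least 10 cells expected; filled points are all 3426 cells thinned to 8000 UMIs and open points leave out the 3 unnamed clusters, with dotted lines at 1.2-fold. Pdx1 with Onecut2, Gata4 with Pdx1 and Gata4 with Onecut2 lie highest, and Cdx2 with Pdx1 moves from 0.598 to 0.870 without those clusters.

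Levels moved with the amount of Onecut2 per cell. From 1924 cells with 0 Onecut2 UMIs through 790 with 1 to 2, 475 with 3 to 5 and 237 with 6 or more, Gata4 was at 21.2 (19.004 to 23.7), 41.8 (36.9 to 47.1), 60.0 (52.5 to 68.3) and 97.0 (83.5 to 112) CPM. Cdx2 was at 334 (325 to 343), 301 (288 to 315), 263 (247 to 280.0) and 239 (217 to 262) CPM over the same bins. Gata6 was at 142, 112, 97.4 and 95.5 CPM, its last 2 bins within counting error. Pdx1 was at 7.99, 4.75, 18.2 and 63.3 CPM, and so did not follow the bins in order. Hnf4a was at 20.7, 23.1, 26.3 and 23.7 CPM and Hnf4g at 23.5, 20.7, 19.2 and 25.3 CPM, with overlapping intervals between all neighbouring bins.

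Across the same 3426 cells of 1 library, thinned to 1 depth, the genes most like each member were ranked by Pearson's r of log2(count + 1) among 8935 genes. Onecut2 was most like Sfrp5 (r = 0.63), followed by Id1, Ccnd2, St8sia3 and Plac8 (0.49 to 0.42). Pdx1 was most like Id3 (0.50), Dlk1 (0.46), Meis2 (0.43), Mest (0.38) and Gsta3 (0.38); Dlk1 and Mest are also leading genes of the Cpa1 cluster. Gata4 was most like Sfrp5 (0.28) and Plac8 (0.25), then Krt8, Rbp4 and Nepn, and Cdx2 was most like Bex1 (0.29), then Tmsb4x, Pth1r, Osr2 (0.22) and Tpm1. For Gata6 the highest r was 0.15, with Vim, and for Hnf4a and Hnf4g it was 0.06 and 0.08, too weak to name a likeness. Among the members themselves, r was 0.30 for Gata4 and Onecut2, 0.23 for Pdx1 and Onecut2 and -0.25 for Cdx2 and Pdx1.

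At E17.5, Cdx2 and Pdx1 separated the clusters. Cdx2 was at 228 CPM in enterocyte-like, 212 in stem-like and 209 in goblet-like clusters, at 11.8 CPM in the islet-like cluster and at 7.92 in the acinar-like ones. It was at 117 to 220 CPM (219.7 at most) in 6 hormone-bearing clusters, led by Reg4 and Tac1, by Nts, by Cck, by Gip, by Gcg and by Sst with Ghrl. It was at 15.8 CPM in a cluster led by Sst and Pyy, 5.71 in one led by Ppy and 7.42 in one led by Spp1 and Neurog3. The values of these last 3 and of the islet-like and acinar-like clusters are close to the 9.34 CPM of the mesenchymal-like and smooth muscle-like cells.

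Pdx1 at E17.5 was at 273 CPM in the islet-like cluster and 260 (259.9) in the Sst and Pyy cluster. It was also present in clusters with high Cdx2, at 147 CPM in the cluster led by Sst and Ghrl and 108 in that led by Gip, a hormone of duodenal K cells. The enterocyte-like (8.72), stem-like (6.28) and goblet-like (4.77) levels were at or below the 9.89 CPM (5.86 to 15.6) of the mesenchymal-like and smooth muscle-like cells. Depth differs between them: the median was 26940, 28388 and 32035 UMIs in the 3 epithelial classes and 6446 in the mesenchymal-like and smooth muscle-like cells. Per 100 cells, Pdx1 gave 22.8, 17.7 and 15.03 UMIs in the 3 classes and 7.26 in the mesenchymal-like and smooth muscle-like cells. The 2 scales differ in direction, so no Pdx1 level is read for those classes. Of the 18 Pdx1 UMIs behind that level, 8 came from 1 mesenchymal-like cluster of 23 cells (53.5 CPM), and the smooth muscle-like cells alone were at 7.76 CPM. The 2 somatostatin clusters thus differed in Cdx2, at 185 against 15.8 CPM (13 UMIs), a ratio of 11.7, and in Onecut2, at 230.3 against 48.6 CPM. Among genes, Pdx1 was most like Iapp (r = 0.40), Pcsk2 and Nkx6-1, all beta cell or islet genes, and Dbpht2, across 4252 cells thinned to 4000 UMIs.

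**Figure D4:**
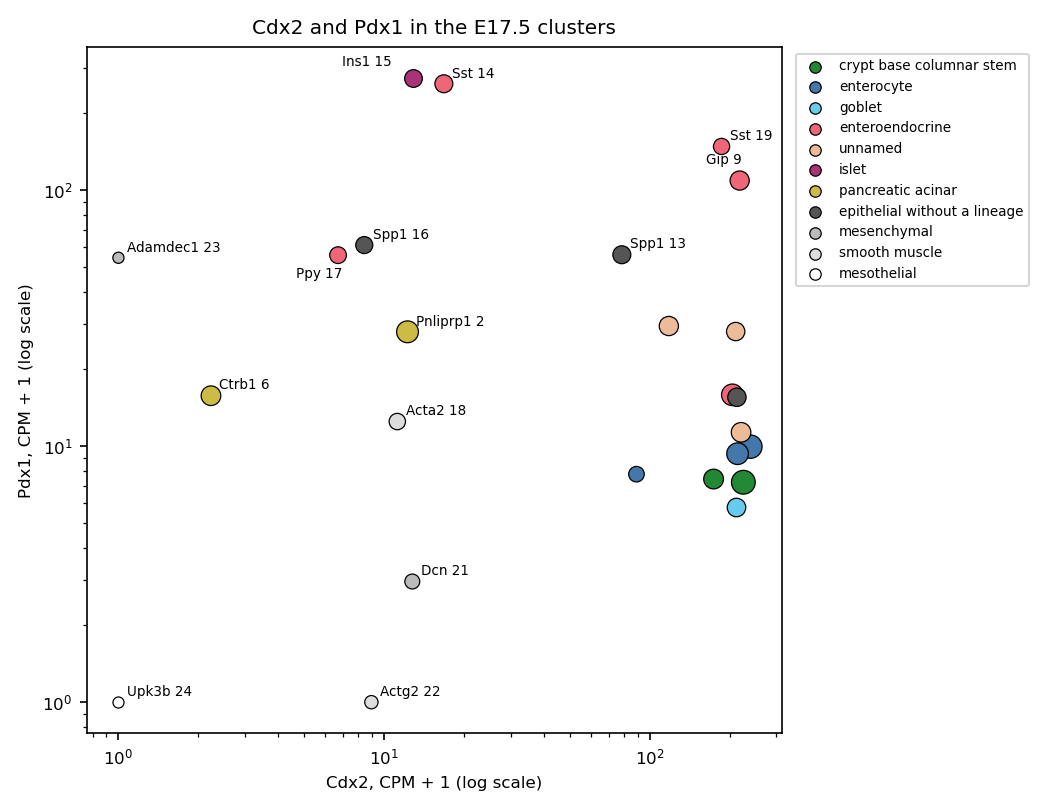
Pdx1 against Cdx2 in the 25 clusters of the E17.5 library, each as CPM + 1 on a log axis; each point is 1 cluster, coloured by its name, larger points hold more cells, and clusters with Pdx1 over 40 or Cdx2 under 20 CPM carry their leading gene and cluster number. The Ins1 cluster (islet-like) and the Sst cluster 14 are high in Pdx1 and low in Cdx2, while the Sst cluster 19 and the Gip cluster are high in both.

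The other members also differed between E17.5 clusters. Onecut2 was at 1288 CPM in a cluster led by Spp1 and Tff2, which also had Cdx2 at 77.5, Pdx1 at 55.0 and Cdx1 at 5.92 CPM, and at 61.0 to 122 CPM in the enterocyte-like, stem-like and goblet-like classes. Its nearest genes across cells were St8sia3 (r = 0.38), which was also on its E12.5 list, Spp1, Bicc1, Nr2f2 and Pamr1. Hnf4g was at 106 CPM in enterocyte-like clusters, 58.1 in stem-like ones (a log2 ratio of 0.86, 0.76 to 0.97) and 15.6 in enteroendocrine-like ones (20.4 without the clusters led by Sst with Pyy and by Ppy, which the marker rule put in that class), whereas Hnf4a was at 90.4 and 95.9 CPM in the first 2 (-0.08, -0.18 to 0.01). Gata4, at 35.8 against 24.0 CPM, and Gata6, at 138 against 96.2, were higher in enterocyte-like than stem-like clusters, and Cdx1 was higher in the stem-like ones, at 129 against 87.1 CPM. Gata4 was at 32.3 CPM in acinar-like clusters and 0 UMIs in the islet-like cluster.

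Across E17.5 cells, Hnf4g was most like Lypd8 (0.33), Chpt1, Fabp2 (0.32), Pycard and Prap1. Cdx2 was most like Lgals4 (0.42), then Lgals2, Cldn7, Plac8 and Tm4sf20, and Lgals4 also headed the lists of Cdx1 (0.32) and Hnf4a (0.26). For Gata4 the highest r was 0.11 and for Gata6 0.16.

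The step from E17.5 to adult was also read within named classes, each with its own clusters. In stem-like clusters Onecut2 was at 83.3 and 202 CPM (log2 ratio 1.28, 1.18 to 1.38), Hnf4a at 95.9 and 145 (0.60, 0.49 to 0.71), Cdx2 at 212 and 140.5 (-0.60, -0.70 to -0.50) and Hnf4g at 58.1 and 36.5 (-0.67, -0.87 to -0.48). In enterocyte-like clusters Onecut2 was at 122 and 197 CPM (0.70, 0.54 to 0.85), Cdx2 at 228 and 114 (-0.998, -1.19 to -0.81) and Hnf4a at 90.4 and 91.7. Hnf4g there was at 106 and 143 CPM (0.44, 0.26 to 0.61), the opposite direction to the whole libraries. Enterocyte-like cells made up 18.5% of E17.5 and 1.66% (63 cells) of adult cells, so the summed Hnf4g level moves with that share; its part was not tested.

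In the adult, tuft-like cells had the highest Cdx1 of the named classes. Cdx1 was at 270 CPM (269.6) in 1051 tuft-like cells and 52.8 in 1833 enteroendocrine-like cells, a log2 ratio of 2.35 (2.21 to 2.50), while Cdx2 was at 46.5 and 116 CPM (-1.32, -1.52 to -1.12). Gata6 was at 36.3 and 83.1 CPM (-1.20, -1.43 to -0.97) and Onecut2 at 183 and 350 (349.9) CPM (-0.94, -1.04 to -0.83). Hnf4a was close to equal, at 111 and 94.8 CPM. Hnf4g was at 5.51 CPM in tuft-like, 25.1 in enteroendocrine-like and 143 in enterocyte-like cells. The low levels were not particular to tuft-like cells. Adult Paneth-like cells were at 33.8 CPM for Cdx2, 21.7 for Gata6 and 4.35 for Hnf4g. Onecut2 was at 197 CPM in adult enterocyte-like cells, close to the tuft-like level (log2 ratio 0.11, -0.06 to 0.28). The irradiated adult showed the same contrast, with Cdx1 at 246 and 74.0 CPM (1.73, 1.57 to 1.89) and Cdx2 at 35.7 and 119.8 (-1.75, -2.15 to -1.36) in tuft-like and enteroendocrine-like cells.

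Pdx1 in the adult was at 161 CPM in an unnamed cluster led by Sst and Iapp, 71.8 in one led by Fabp5 and Gip and 59.3 in one led by Pclo, and at 2.81 to 13.8 CPM in the other 4 hormone-bearing clusters. After irradiation the cluster led by Iapp and Sst was at 164 CPM and those led by Fabp5 with Gip and by Pclo with Gip at 79.9 and 56.5.

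The members were also set side by side within classes. Cdx1 was lower in the whole irradiated library but higher in its enteroendocrine-like cells, at 74.0 against 52.8 CPM (0.49, 0.35 to 0.63), and at 246 against 270 CPM (269.6) in tuft-like cells (-0.13, -0.30 to 0.03). Tuft-like cells made up 27.7% of adult and 9.20% of irradiated cells; the part of that share in the summed Cdx1 level was not tested. In enteroendocrine-like cells Hnf4a was at 122 against 94.8 CPM (0.37, 0.26 to 0.48) and Onecut2 at 281 against 350 (349.9) CPM (-0.32, -0.38 to -0.26). Cdx2, Gata4, Gata6, Hnf4g and Pdx1 there had intervals of the log2 ratio that included 0, all within -0.37 and 0.32. The class is not made of the same clusters in both libraries: the adult clusters led by Sst and Iapp and by Nts and Cck were unnamed and outside it, while the irradiated clusters led by Iapp and Sst and by Ffar1 and Nts were inside, and the median depth was 3151 against 10290 UMIs. With the unnamed hormone-bearing clusters put back in both libraries, Cdx1 was at 73.8 against 58.9 CPM (0.33, 0.20 to 0.45), Hnf4a at 122 against 89.3 CPM (0.45, 0.36 to 0.55) and Onecut2 at 282 against 357 CPM (-0.34, -0.40 to -0.29). Pdx1 was then at 29.7 against 39.6 CPM (-0.42, -0.58 to -0.25), and Cdx1 in adult tuft-like cells was above them by a log2 ratio of 2.19 (2.07 to 2.32).

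Hnf4g in enterocyte-like cells was at 22.7 CPM (127 UMIs, 107 cells) in the irradiated library and 143 (303 UMIs, 63 cells) in the adult, a log2 ratio of -2.66 (-2.97 to -2.35), while Hnf4a was at 107 and 91.7 CPM (0.23, -0.01 to 0.47). Cdx2 was at 73.2 and 114 CPM (-0.64, -0.87 to -0.40) and Gata6 at 69.8 and 102. The clusters behind the class are not alike: the adult one was led by Reg1, Reg3b, Apoa4, Reg3g, Fabp2 and Alpi, and the irradiated one by Reg3b, Ccnd1, Apoa4, Gsta1 and Areg, with Apoa4 its only enterocyte marker among 10 leading genes. Across the libraries, 8 of 17 enterocyte genes with known HNF4 and CDX sites were lower after irradiation and none higher, where 5.33% of all genes were lower and 3.07% higher, with a median log2 ratio of -0.87; Mttp, needed for lipoprotein assembly, was at 103 and 26.7 CPM and Sis, sucrase-isomaltase, at 519 and 671.

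In Paneth-like cells Cdx2 was at 33.8 and 11.4 CPM (-1.56, -1.98 to -1.15) and Onecut2 at 46.0 and 23.4 CPM (-0.97, -1.29 to -0.66) in the adult and irradiated libraries. Most genes were lower there too: of 4529 genes tested in this class, 68.5% had a log2 ratio below 0, with a median of -0.33. Depth differed with it: the adult class pools clusters of median depth 1616 and 30057 UMIs, with Cdx2 at 128 and 24.7 CPM, and the irradiated cluster had a median of 98899 UMIs. The part of depth in that difference was not tested.

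**Figure D5:**
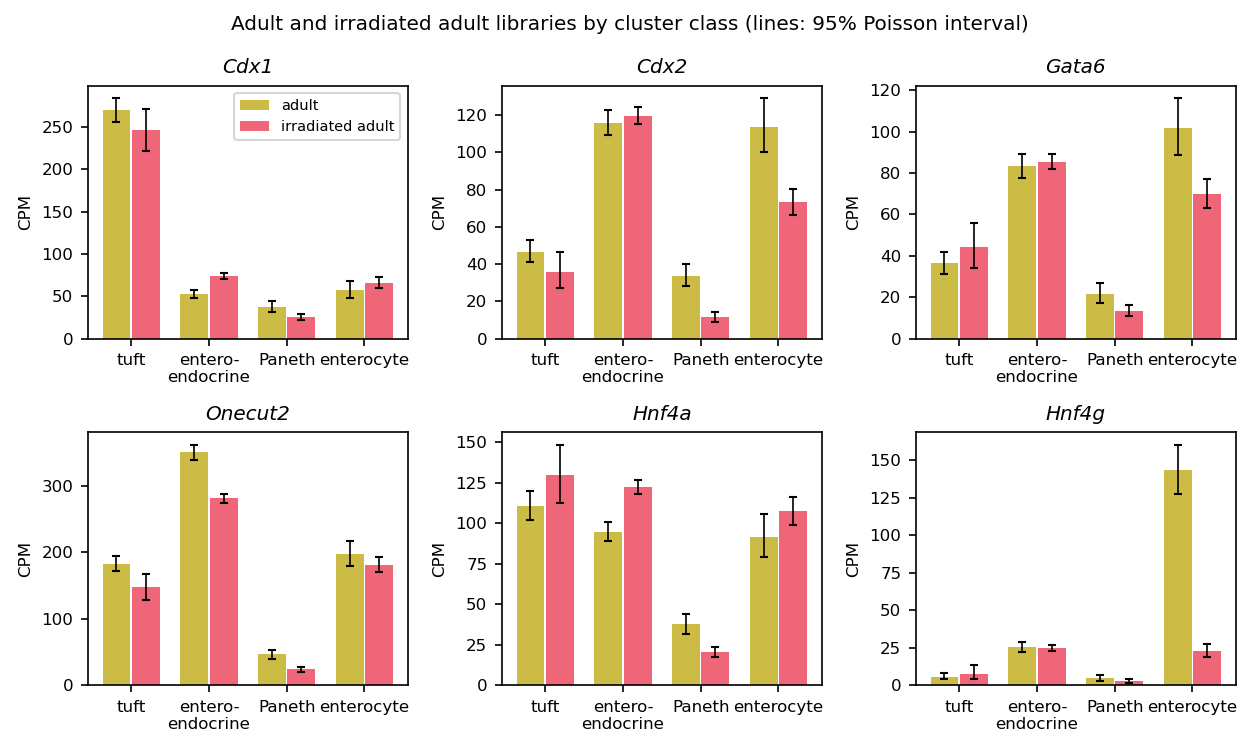
Levels of 6 factors in tuft-like, enteroendocrine-like, Paneth-like and enterocyte-like clusters of the adult and irradiated adult libraries, in CPM on axes from 0; bars are UMIs summed over cells of the class and lines the 95% Poisson intervals. Cdx1 is highest in tuft-like cells of both libraries, and Cdx2 is low in tuft-like and Paneth-like cells. Hnf4g in enterocyte-like cells is at 143 CPM in the adult and 22.7 CPM after irradiation.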

How the data were processed

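The deposited values are UMI counts, 1 matrix of genes by barcodes a library, as whole numbers with no normalization. The submitters' processing notes name Cell Ranger 3.1.0 and mm10, and the annotation is not given in the sources used here. The lowest total among deposited barcodes was 500 UMIs in each library. A barcode was kept if it showed 500 genes or more and drew no more than 20% of its UMIs from mitochondrial genes; of the deposited barcodes, 53.1% to 88.0% a library passed. CPM are UMIs summed over cells and scaled to 1000000, with exact 95% Poisson intervals, and shares have exact Clopper-Pearson intervals. Both cover counting error only. PCR copies are removed by the UMI.

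Genes that reached 50 UMIs in one library or the other were compared as log2 of (CPM + 1) ratios and called at 2-fold. Intervals of ratios between classes use no pseudocount and are exact. With 1 library per group no test was run. Depth ranged from 31908663 UMIs in the kept cells of the adult library to 89064972 at E12.5. Clusters were made within each library without the 9 factors (scanpy 1.11.5, leidenalg 0.10.2; 2000 variable genes, 30 principal components, 20 neighbours, resolution 1) and named from 19 marker lists. A class needed a mean marker score of at least 0.5, from the log2 level scaled between the lowest and highest cluster, and 3 markers at 50 CPM in 10% of the cluster's cells. A cluster stayed unnamed where genes of another class outnumbered its own among its 10 leading genes. So did a cluster with no own marker among them and a median depth below the library's median divided by 3. The same held for a cluster with only general epithelial markers and 2 or more leading genes of non-intestinal classes. These thresholds were set with the data in view. Other clusters with no lineage markers but general epithelial ones were kept as epithelial without a lineage.

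All 9 members are named, with genes of 8 fixed lists and, for each member detected in at least 5% of cells, the 5 genes of highest correlation. A few genes that these rules name are not reported here, and list counts leave them out. The members and lists were chosen with earlier results of these data known. Doublets were kept in the main values, since the automatic threshold of Scrublet called between 0 and 0.174% of cells, and an alternative removed the highest scores (153 to 193 cells a library). Alternatives changed the cell filter, doublets, populations, scaling (edgeR 4.0.16, DESeq2 1.42.0), averaging, filter on low counts, pseudocount, thinning and cluster resolution. Scripts were tested on simulated data. Of 31054 gene IDs, 31011 matched GENCODE M21, used for positions.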

Additional observations from a re-analysis of the deposited data

How the results depend on the processing

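No paired analysis was possible because each group has 1 library, and for the same reason no library could be left out. Between E17.5 and E12.5, averaging each cell's CPM put 1 member past 2-fold lower in place of 0. Between adult and E17.5, the stricter cell filter and the restriction to epithelial and unnamed clusters each gave 0 members higher and 1 lower, in place of 1 and 0; averaging each cell's CPM gave 2 higher and a pseudocount of 10 CPM gave 0 higher. That pseudocount also cut the genes past 2-fold, from 2329 higher and 2372 lower to 922 and 883 between E17.5 and E12.5, from 1991 and 2143 to 770 and 858 between adult and E17.5, and from 397 and 688 to 133 and 175 after irradiation. Scaling by TMM factors moved the median log2 ratio of all genes between E17.5 and E12.5 from -0.19 to -0.08. No called log2 ratio of a member changed sign. The directions of Pdx1 and Gata4 between adult and E17.5 and of Cdx2, Gata4 and Gata6 after irradiation, none of them called, turned under at least 1 alternative.

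Of the co-detection ratios past 1.2-fold, Pdx1 with Hnf4a turned to 0.709 in cells thinned to 4000 UMIs, Cdx1 with Onecut2 to 1.17 with no thinning, and Pdx1 with Hnf4g to 1.22 when detection needed 2 UMIs and to 1.14 without the unnamed clusters. Cells that are not thinned differ in depth. The cause of these turns was not tested. The alternative without clusters named pancreatic, gastric, liver or islet could not be run, since no E12.5 cluster took such a name, and the one without the unnamed clusters was chosen after seeing the data, as was the return of unnamed hormone-bearing clusters to the enteroendocrine-like class, which changed no sign of a ratio whose interval left out 0. Removing putative doublets moved 1 of 36 ratios. At these depths a member at 10 CPM gives a UMI in few cells, so a cell without a UMI is not a cell without the gene's RNA.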

Other observations

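Among 19 other endoderm transcription factors, 18 were tested between E17.5 and E12.5, and 5 were higher and 5 lower, beside 15.9% and 16.2% of all genes tested. Creb3l3, a regulator of enterocyte lipid genes, was at 0.0561 CPM (5 UMIs), 66.5, 35.9 and 23.0 CPM in the order E12.5, E17.5, adult, irradiated. Foxa1, a pioneer factor of endoderm, was at 145, 18.0, 45.8 and 75.0 CPM in the same order. Prdm1, which marks the immature gut epithelium of embryo and newborn, was at 71.9, 33.6, 0.439 and 0.435 CPM. Klf4, a factor of differentiated surface epithelium, was at 47.7, 45.6, 355 and 433 CPM. Onecut3, a paralogue of Onecut2, was at 2.45, 22.5, 46.7 and 66.1 CPM, while Onecut1 was at 3.84, 1.56, 0.0313 and 0.0725 CPM, so the 3 paralogues had different orders of libraries. Gata5 was at 23.2, 9.32, 14.4 and 23.8 CPM, with the irradiated and E12.5 libraries highest.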
